A study of Mus musculus with 19 samples.

Results

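Drd2, Penk, Adora2a, Gpr6, Gpr52, Sp9 and Ptprm are 7 genes whose expression in the striatum marks the projection neurons of the indirect pathway, and their RNA levels were compared across 4 mouse genotypes. The genes were chosen as known markers of this cell type, not by a threshold on measured values, but with earlier results of these data known. Of the 54232 gene identifiers in the table, 6 of the 7 genes were matched and tested among 18521 genes, and Gpr52 was not analysed here. Striatal RNA was sequenced from 19 mice, all 6 months old and on the C57/BL/6 background, of which 7 were WT and the knock-in (KI) genotypes KI-96, KI-571 and KI-FL had 4 each. KI-FL mice are HD140Q knock-in mice, in which the mouse gene for huntingtin (HTT) carries an expanded glutamine repeat and full-length mutant HTT is made. The same allele was cut short with CRISPR/Cas9 in the other KI mice, which make an N-terminal HTT fragment that keeps the repeat, shorter in KI-96 than in KI-571. The KI mice of the study are described as heterozygous, each truncated line was bred from CRISPR founders, and the labels do not give the sex of any mouse.

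The striatum holds projection neurons of a direct and an indirect pathway, which are intermixed and use different receptors and peptides. Indirect-pathway neurons carry the D2 dopamine receptor, which lowers cAMP, and the adenosine receptor encoded by Adora2a, which raises it, and they release enkephalin onto the globus pallidus. Direct-pathway neurons carry the D1 dopamine receptor and make substance P and dynorphin. In Huntington disease the enkephalin neurons are known to be affected early.

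The 6 genes were read in the order of their roles. Penk (ENSMUSG00000045573.9, chr4:4133531-4138819, minus strand of GRCm38) encodes the precursor of the enkephalin peptides. Receptor genes follow, which are Drd2 (ENSMUSG00000032259.8, chr9:49340627-49408177, plus strand), Adora2a (ENSMUSG00000020178.6, chr10:75316877-75334784, plus strand) and Gpr6 (ENSMUSG00000046922.7, chr10:41069977-41072285, minus strand), an orphan receptor that raises cAMP without an added ligand. Sp9 (ENSMUSG00000068859.5, chr2:73271925-73284706, plus strand) encodes a zinc finger transcription factor needed for the development of these neurons. Ptprm (ENSMUSG00000033278.10, chr17:66666947-67354457, minus strand) encodes a receptor-type tyrosine phosphatase that joins cells by binding itself on the neighbouring cell, and it is also made by endothelial cells. All 6 are protein-coding genes in GENCODE M21, and the merged exons range from 2 in Gpr6 to 38 in Ptprm. The exons of Penk share 233 bases with A830012C17Rik and those of Sp9 share 270 bases with Cir1, both on the opposite strand, and Ptprm shares 457 bases with a processed pseudogene on its own strand. The strand setting of the counting is not given in the sources used here, so reads in these bases could have been lost or assigned to either gene.

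Promoter sequence was at hand for 4 of the 7 genes (RefSeq, GRCm38.p6), and those of Drd2 and Gpr6 are shown because the levels of these receptors varied together from mouse to mouse. Each run is the 250 bases before the RefSeq start, 5′ to 3′ on the strand of the gene, at chr9:49340153-49340402 for Drd2 and chr10:41072291-41072540 for Gpr6. Capitals mark a cAMP response element, TGACGTCA, which was searched on both strands and is known as a sequence bound by factors that answer to cAMP.
Drd2: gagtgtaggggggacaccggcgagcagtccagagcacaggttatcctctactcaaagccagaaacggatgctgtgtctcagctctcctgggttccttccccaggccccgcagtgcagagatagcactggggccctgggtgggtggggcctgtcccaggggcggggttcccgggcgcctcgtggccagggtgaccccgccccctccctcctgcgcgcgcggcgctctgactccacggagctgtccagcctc
Gpr6: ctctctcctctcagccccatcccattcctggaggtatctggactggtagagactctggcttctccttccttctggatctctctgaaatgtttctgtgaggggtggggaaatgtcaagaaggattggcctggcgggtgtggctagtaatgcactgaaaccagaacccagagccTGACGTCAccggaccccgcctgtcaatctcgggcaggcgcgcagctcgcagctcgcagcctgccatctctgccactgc
The element was present in the Gpr6 window, 78 bases before the start, and its letters were not in the Drd2, Sp9 or Ptprm windows. Of 32851 RefSeq promoter windows of this length, 508 (1.55%) held it. Its shorter core TGACG was found 2 times in the Gpr6 window, both inside the full element, and 1 time in the Ptprm window, and 17.8% of all windows held it.

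The table held between 12669809 and 26388542 reads on genes per mouse, with a median of 18202412, and the 6 genes had between 500 and 30515 reads in each mouse. Reads that fell on no annotated gene were 24.2% in KI-96 replicate 3 and 11.1% to 16.0% in the rest, with ambiguous reads not among them. In KI-FL replicate 4 there were 3186 tested genes with no read, against at most 222 elsewhere. Projection neuron genes such as Ppp1r1b, summed over 8 genes, lay between 6071 and 10260 CPM (counts scaled to library size after TMM) in the 19 mice. The summed level of 6 cortical excitatory neuron genes, which mark tissue from outside the striatum, was 981 CPM in WT replicate 3 and 391 CPM in KI-571 replicate 2, and lay between 11.4 and 109.9 CPM in the other mice. The summed level of 4 choroid plexus genes reached 5172 CPM in KI-571 mice (median 2567) and 2917 CPM in KI-FL mice, against 26.0 to 367 CPM in WT and 9.32 to 69.3 CPM in KI-96 mice. Htt itself was read at 168 to 195 CPM in WT, 143 to 239.9 CPM in KI-96, 104 to 141 CPM in KI-571 and 137 to 179 CPM in KI-FL mice.

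In WT mice the 6 genes covered a wide range of levels. Per length of their exons (RPKM, CPM per kilobase of exon), Penk stood at 552 ± 102 (SD, n = 7), the 28th highest level of 18509 genes. Adora2a followed at 124 ± 16.8 and Drd2 at 96.2 ± 18.5 RPKM, and Gpr6 reached 44.3 ± 8.53 RPKM. The transcription factor gene Sp9, at 7.89 ± 0.802 RPKM, and Ptprm, at 5.09 ± 0.549 RPKM, were the least abundant of the 6. This order, Penk, Adora2a, Drd2, Gpr6, Sp9 and Ptprm, was found in 17 of the 19 mice, and in the other 2 mice Drd2 lay above Adora2a. The per-length ranges of Adora2a (95.4 to 142 RPKM) and Drd2 (71.4 to 121 RPKM) overlapped across the WT mice, but within each of the 7 WT mice Adora2a was the higher, by 0.37 ± 0.099 (SD) on the log2 scale. The ranges of Sp9 (6.64 to 8.86 RPKM) and Ptprm (4.40 to 5.74 RPKM) did not overlap in WT mice. The per-length level of Penk was between 33.8 and 130.3 times that of Ptprm in single mice, and the lowest of these values belonged to KI-96 replicate 3.

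None of the 6 genes passed an adjusted p of 0.05 in any comparison of a KI genotype with WT. The calls were 0 of 6 in KI-96, where 0.027% of all tested genes were called, 0 of 6 in KI-571, where 0.0324% were called, and 0 of 6 in KI-FL, where 0.194% were called. At an unadjusted p under 0.05, 0 of 6 genes passed in KI-96 (7.45% of all genes), 0 of 6 in KI-571 (7.72%) and 1 of 6, Ptprm, in KI-FL (16.7%). With DESeq2 the adjusted calls were also 0 of 6 in each genotype, where 0.151%, 0.688% and 2.75% of all genes with an adjusted p were called. Its unadjusted p was under the same limit for 1 of 6 genes, Penk, in KI-96 (8.3% of all genes), for 0 of 6 in KI-571 (8.55%) and for 1 of 6, Ptprm, in KI-FL (18.6%). The fitted changes of the 6 genes had a median of -0.030 on the log2 scale in KI-96 (all genes -0.015), 0.079 in KI-571 (all genes -0.0089) and 0.049 in KI-FL (all genes -0.028). A change above 0 was fitted for 3 of 6 genes in KI-96 (47.2% of all genes), 5 of 6 in KI-571 (48.3%) and 4 of 6 in KI-FL (46.1%). Such counts of signs are not counts of separate results, since most of the 6 genes varied together from mouse to mouse. The ranges of CPM of a KI genotype and WT overlapped for all of the 6 genes, whereas they did not overlap for 1.24%, 1.55% and 5.29% of all genes in the same order of genotypes. These are bulk tissue samples, in which fewer cells of a type and less RNA per cell cannot be told apart.

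**Figure D1:**
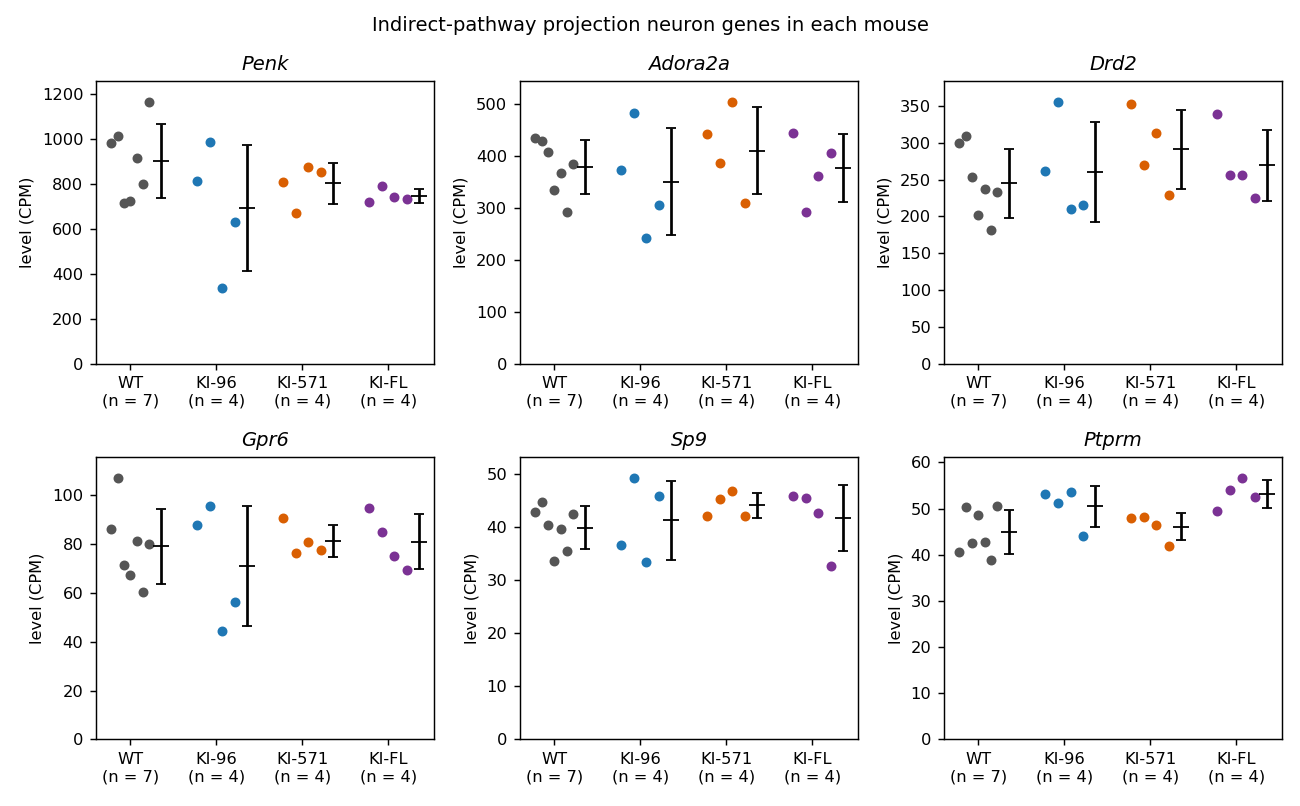
Level of each of the 6 genes in every mouse, in CPM on a linear axis that starts at 0, by genotype (n = 7 for WT and n = 4 for each KI genotype). Points are mice and the bars beside them are the mean and SD. The ranges of WT and of each KI genotype overlap for every gene, and the lowest Penk level, 335 CPM, stands apart in KI-96.

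The group mean of Penk was lower in each of the 3 KI genotypes than in WT, within the spread between mice. Its level in WT mice was 715 CPM at the lowest, 917 at the median and 1165 at the highest. In KI-96 mice it was 815, 989, 335 and 633 CPM in replicates 1 to 4. KI-96 replicate 3 and replicate 4 lay below every WT mouse, whereas the other two lay inside the WT range. In KI-571 mice Penk was read at 809, 673, 878 and 854 CPM, and in KI-FL mice at 719, 789.7, 741 and 734 CPM. The KI-FL mice were close to each other and all near the low end of the WT range, and of the KI-571 mice only replicate 2 lay below WT. The mean was 903 ± 166 CPM in WT (SD, n = 7), 693 ± 279 in KI-96, 803 ± 91.4 in KI-571 and 746 ± 30.5 in KI-FL (SD, n = 4 each). The fitted log2 fold change was -0.38 ± 0.19 (SE) in KI-96, with a 95% confidence interval from -0.79 to 0.023 and an adjusted p of 0.689 by the quasi-likelihood test of edgeR after Benjamini-Hochberg adjustment. It was -0.17 ± 0.19 in KI-571 (interval -0.57 to 0.23, edgeR adjusted p = 0.951) and -0.27 ± 0.19 in KI-FL (interval -0.68 to 0.13, edgeR adjusted p = 0.483). The KI-96 value depended on single mice, since it was -0.16 without KI-96 replicate 3, the mouse with 24.2% of its reads on no gene, and -0.60 without KI-96 replicate 2, and neither passed the adjusted threshold. The KI-571 value was -0.093 without KI-571 replicate 2.

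Drd2 differed from Penk in that its fitted changes lay above 0 in the 3 KI genotypes, although the KI-96 value was -0.10 without KI-96 replicate 2 and the KI-FL value -0.0057 without KI-FL replicate 1. Its level in WT mice was 182, 237 and 309 CPM at the lowest, median and highest. KI-96 mice had 261, 356, 210.1 and 215 CPM, KI-571 mice 352, 270.5, 313 and 229 CPM, and KI-FL mice 339, 256, 257 and 225 CPM. The highest mouse of each KI genotype lay above every WT mouse, with a further KI-571 mouse just above, and all others lay within the WT range. The mean was 245 ± 47.0 CPM in WT, 260.5 ± 67.4 in KI-96, 291 ± 53.4 in KI-571 and 269 ± 48.7 in KI-FL. The log2 fold change of Drd2 was 0.25 ± 0.16 (SE) in KI-571, with an interval from -0.088 to 0.59 and an edgeR adjusted p of 0.811, and it was 0.14 without KI-571 replicate 1. It was 0.088 ± 0.16 in KI-96 (interval -0.25 to 0.43, edgeR adjusted p = 0.939) and 0.14 ± 0.16 in KI-FL (interval -0.20 to 0.48, edgeR adjusted p = 0.694). Drd2 is also expressed by cholinergic interneurons, whose 4 genes (Chat, Slc5a7, Slc18a3 and Lhx8) summed to 68.6 to 119.7 CPM in WT and 84.4 to 91.4 CPM in KI-571 mice. The cholinergic level in KI-571 was inside the WT range, with each mouse below the WT median of 109 CPM. The lowest WT value was that of replicate 3, the mouse with 981 CPM of cortical genes. Of the 4 genes, Chat (-0.30 ± 0.14 SE, edgeR adjusted p = 0.606) and Lhx8 (-0.54 ± 0.23 SE, edgeR adjusted p = 0.554) had an unadjusted p under 0.05 in KI-571. The part of these cells in the Drd2 values was not tested.

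Adora2a, the receptor for adenosine, was read at 292, 385 and 434 CPM at the lowest, median and highest in WT mice. KI-96 mice had 372, 481, 242 and 305 CPM, KI-571 mice 442, 386, 503 and 308 CPM, and KI-FL mice 444, 291, 362 and 406 CPM. Each KI genotype held mice on both sides of the WT median. The log2 fold change was -0.11 ± 0.16 (SE) in KI-96, 0.12 ± 0.16 in KI-571 and -0.0093 ± 0.16 in KI-FL, and the edgeR adjusted p was between 0.915 and 0.984. The KI-571 value was 0.00089 without KI-571 replicate 3. The widest of the 3 intervals reached from -0.45 to 0.23 in KI-96, so a fall to 0.730 or a rise to 1.17 times the WT level was within it.

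Gpr6 was read at 60.2, 79.9 and 107 CPM at the lowest, median and highest in WT. The levels were 87.9, 95.4, 44.4 and 56.3 CPM in KI-96, 90.8, 76.2, 80.8 and 77.5 CPM in KI-571, and 94.6, 84.9, 74.9 and 69.3 CPM in KI-FL mice. The lower pair of KI-96 mice, replicates 3 and 4, were the same animals that had the lowest Penk, and they lay below every WT mouse. The log2 fold change of Gpr6 was -0.16 ± 0.17 (SE) in KI-96 (interval -0.51 to 0.20, edgeR adjusted p = 0.877), 0.042 ± 0.17 in KI-571 and 0.034 ± 0.17 in KI-FL. Without KI-96 replicate 3 the KI-96 value was 0.0091.

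Sp9 had a smaller coefficient of variation than the 3 receptor genes in WT, KI-96 and KI-571 mice, and in KI-FL it was 14.8% against 13.8% for Gpr6. Sp9 was read at 33.5, 40.3 and 44.7 CPM at the lowest, median and highest in WT, and at 36.6, 49.3, 33.5 and 45.7 CPM in KI-96 mice. The values were 42.0, 45.3, 46.8 and 42.1 CPM in KI-571 and 45.8, 45.4, 42.6 and 32.6 CPM in KI-FL mice. All 4 KI-571 mice lay above the WT median, but the ranges overlapped. The log2 fold change was 0.15 ± 0.11 (SE) in KI-571 (interval -0.093 to 0.38, edgeR adjusted p = 0.877), 0.051 ± 0.12 in KI-96 and 0.064 ± 0.12 in KI-FL.

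Ptprm gave the smallest unadjusted p of the 6 genes. WT mice had 38.9, 42.7 and 50.6 CPM at the lowest, median and highest. In KI-FL mice Ptprm was read at 49.5, 54.0, 56.7 and 52.4 CPM, in KI-96 mice at 53.2, 51.2, 53.6 and 44.0 CPM, and in KI-571 mice at 47.9, 48.2, 46.5 and 41.9 CPM. In both KI-FL and KI-96, 3 of the 4 mice lay above every WT mouse, whereas all KI-571 mice lay within the WT range. The mean was 44.9 ± 4.84 CPM in WT, 50.5 ± 4.45 in KI-96, 46.1 ± 2.91 in KI-571 and 53.1 ± 3.03 in KI-FL. The log2 fold change in KI-FL was 0.24 ± 0.091 (SE), a fold of 1.18 with an interval from 1.04 to 1.35, and the p was 0.0137 before and 0.192 after adjustment over all genes by edgeR. It was 0.17 ± 0.091 in KI-96 (edgeR adjusted p = 0.702) and 0.038 ± 0.091 in KI-571 (edgeR adjusted p = 0.983). Endothelial genes, 6 in number, summed to 61.0 to 157 CPM in WT, with a median of 80.9. They summed to 103 to 133 CPM in KI-96, 94.3 to 134 CPM in KI-571 and 83.8 to 120.2 CPM in KI-FL mice. All 3 KI medians thus lay above the WT median while the ranges overlapped, and the part of endothelial RNA in the Ptprm values was not tested.

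**Figure D2:**
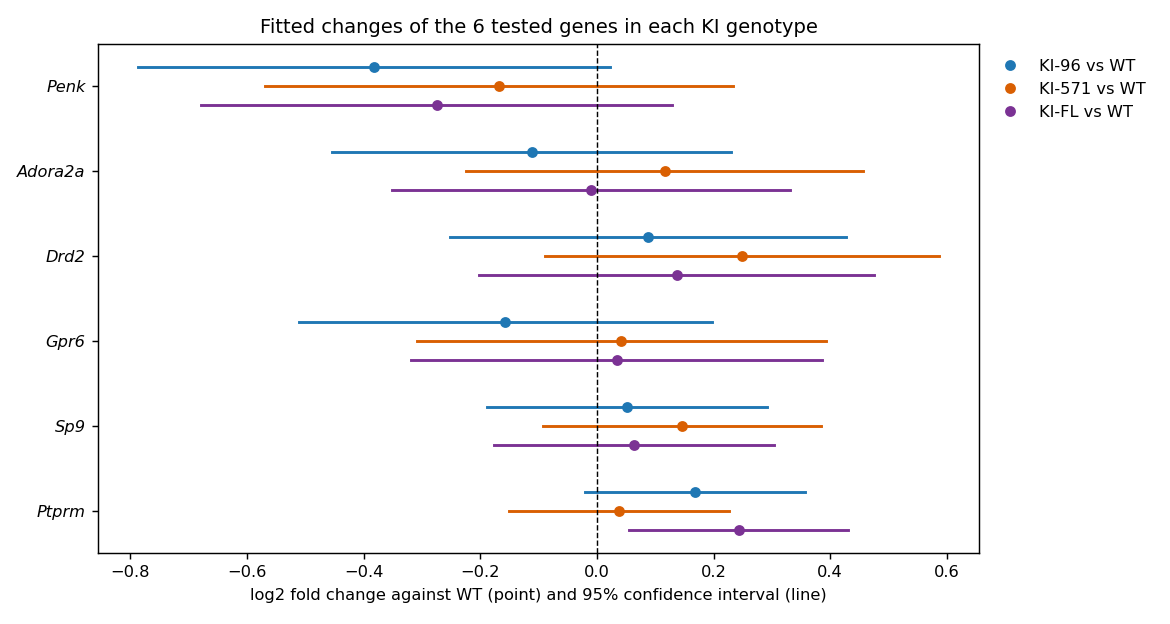
Fitted log2 fold change of each of the 6 genes in each KI genotype against WT (points) with its 95% confidence interval (lines), from the edgeR model over 19 mice. The dashed line marks no change, and the only interval that does not reach it is that of Ptprm in KI-FL (0.055 to 0.43), whose adjusted p was 0.192.

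The KI genotypes were also compared with each other, which asks whether a truncated and a full-length mutant HTT go with different levels. The calls were 0 of 6 between KI-96 and KI-FL (0% of all genes called), 0 of 6 between KI-571 and KI-FL (0.0864%) and 0 of 6 between KI-96 and KI-571 (0.0054%) by edgeR. They were also 0 of 6 by DESeq2, where 0.205%, 0.476% and 0.189% of all genes with an adjusted p were called. A difference above 0 was fitted for 0 of 6 genes in KI-96 against KI-FL (52.7% of all genes), 5 of 6 in KI-571 against KI-FL (52.8%) and 1 of 6 in KI-96 against KI-571 (49.2%). Most of the 6 genes varied together from mouse to mouse, so these signs are not 6 separate results. No gene of the 6 reached an unadjusted p under 0.05 in these comparisons, where 8.9%, 8.9% and 5.51% of all genes did. Ptprm came closest, at 41.9 to 48.2 CPM in KI-571 and 49.5 to 56.7 CPM in KI-FL mice, ranges that do not overlap. Such separation was found for 1 of the 6 genes in this comparison and for 4.32% of all genes, and for 0 of 6 between KI-96 and KI-FL (3.16%) and 0 of 6 between KI-96 and KI-571 (2.85%). The log2 difference was -0.20 ± 0.10 (SE, KI-571 minus KI-FL), with an interval from -0.42 to 0.0091 and an edgeR adjusted p of 0.581. The intervals were widest for Penk, as in KI-96 against KI-571 (-0.66 to 0.24), so differences of that size between KI genotypes could not be told from the spread between mice.

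With the 3 KI genotypes averaged against WT, 0 of 6 genes were called (0.054% of all genes) by edgeR, with DESeq2 also at 0 (1.82% of all genes with an adjusted p). An unadjusted p under 0.05 was given by 1 of 6 genes with edgeR (12.9% of all genes), which was Ptprm at a log2 fold change of 0.15 ± 0.069 (SE, edgeR adjusted p = 0.372). Penk had -0.27 ± 0.14 (SE), with an interval from -0.58 to 0.026 and an edgeR adjusted p of 0.438. With DESeq2, 2 of 6 genes, Penk and Ptprm, were below this unadjusted limit (14.2% of all genes), and neither was called. Drd2 had 0.16 ± 0.12 and Sp9 0.087 ± 0.088, with 3 of 6 values above 0 (45.5% of all genes), whereas Adora2a (-0.0016 ± 0.12) and Gpr6 (-0.027 ± 0.13) lay close to 0. The ranges of all KI and all WT mice overlapped for each of the 6 genes (0.0108% of all genes did not overlap).

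The levels of Drd2, Adora2a and Gpr6 were correlated from mouse to mouse within a genotype, and those of Penk and Sp9 followed them less evenly. After the mean of its genotype was taken from each log2 CPM value, Drd2 and Adora2a had a Pearson r of 0.83 (Spearman rho 0.91) over the 19 mice, Drd2 and Gpr6 an r of 0.83, and Penk and Gpr6 an r of 0.80. The r of Drd2 was lower with Penk (0.51) than with Sp9 (0.64). These values are descriptive, since all genes of a mouse share a dissection and a library. Gpr6 followed the mean of the other genes most closely (r = 0.91), then Drd2 (0.82), Adora2a (0.77), Penk (0.70) and Sp9 (0.62). Ptprm did not follow them, with an r of 0.15 to the mean of the others. The mice farthest from their genotype mean were KI-96 replicate 2, at 0.40 above it on the log2 scale averaged over the 6 genes, and KI-96 replicate 3, at -0.42. Without these mice, the farthest out for Penk, its r with Gpr6 was 0.61, its r with Adora2a was 0.25 in place of 0.61, and its r with Sp9 was 0.26 in place of 0.56. Without the same mice the r of Adora2a and Sp9 was 0.19 in place of 0.46, and that of Gpr6 and Sp9 was 0.38 in place of 0.60. Without the mice farthest out for Drd2 (KI-96 replicate 2 and WT replicate 2), the r of Drd2 and Adora2a was 0.78.

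**Figure D3:**
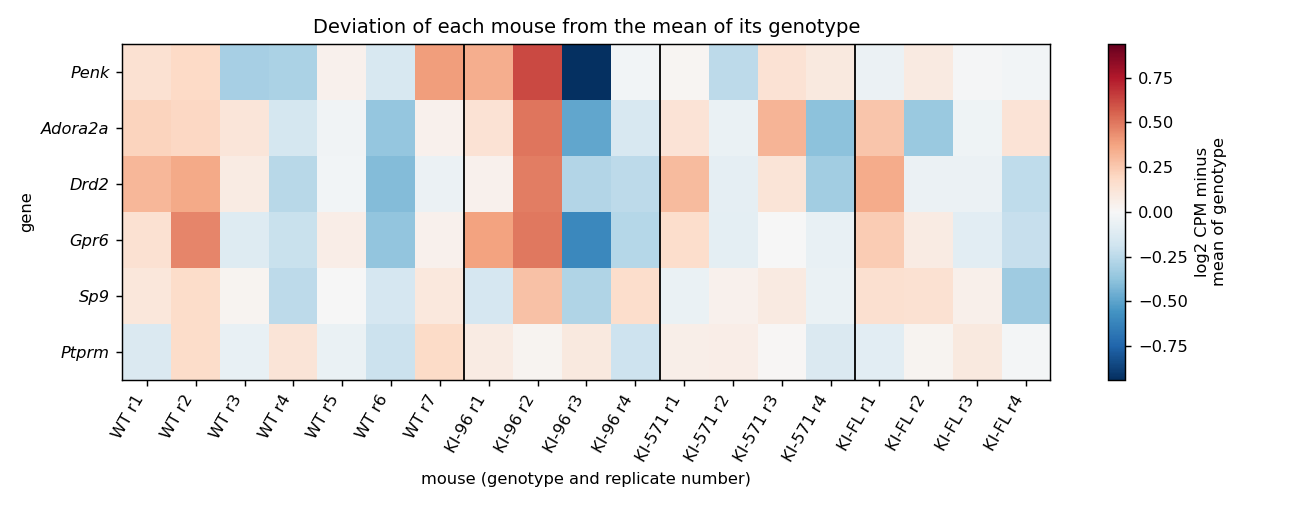
Deviation of the log2 CPM of each gene in each mouse from the mean of its genotype, with genes as rows and the 19 mice as columns, and black lines between genotypes. Red is above and blue below the mean. Within a column the upper 4 rows often share a colour, KI-96 replicate 2 is the reddest and KI-96 replicate 3 the bluest, and the Ptprm row is pale.

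Outside the 6 genes, the 5 genes whose deviations over the 19 mice were most like the mean of the 6 were Ptpn5 (r = 0.94), Asic4 (r = 0.92), Gnb5 (r = 0.91), Tlnrd1 (r = 0.88) and Rap1gap (r = 0.88). Ptpn5 encodes the striatum-enriched phosphatase STEP, which both classes of projection neuron make, and Gnb5 encodes a G protein beta subunit that pairs with Rgs9. Without the pair of mice farthest out, the r of Ptpn5 was 0.89. Ppp1r1b, the phosphatase regulator DARPP-32 that both classes also make, had an r of 0.88. The r of the 9 genes of direct-pathway neurons lay between -0.11 (Isl1) and 0.83 (Slc35d3), and it was 0.72 for Tac1 and 0.60 for Drd1. Without the same pair of mice it was 0.67 for Slc35d3, 0.47 for Tac1 and 0.72 for Drd1.

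A ratio of an indirect- to a direct-pathway gene within each mouse was compared as well, because a shared rise or fall of both cancels in it. The ratios were chosen with earlier results of these data known, so their p-values are not those of a choice made in advance. The first was Penk to Tac1, the gene for the substance P precursor, as a difference of log2 CPM. WT mice had ratios of 2.49, 2.09, 2.19, 2.25, 2.21, 2.19 and 2.51 in replicates 1 to 7. KI-FL mice had 1.36, 1.87, 1.97 and 1.68, KI-96 mice 2.15, 2.15, 1.61 and 1.82, and KI-571 mice 2.18, 1.87, 2.15 and 1.94. All 4 KI-FL mice lay below every WT mouse, as did 2 of 4 mice in KI-96 and 2 of 4 in KI-571. How often other pairs of genes separate KI-FL from WT was not computed, and 5.29% of all single genes did. The KI-FL mean was 0.55 below WT on the log2 scale, a Penk to Tac1 ratio 0.681 times that of WT (1.72 ± 0.27 against 2.28 ± 0.16, SD). The two-sided exact permutation test over the 330 splits gave p = 0.00303, the smallest it can give, and an adjusted p of 0.0182 over the 6 ratio tests. In KI-96 the difference was -0.34 (exact permutation p = 0.0182, adjusted p = 0.0364), and in KI-571 it was -0.24 (exact permutation p = 0.0515, adjusted p = 0.0773). Neither gene of the ratio passed its own test in KI-FL, where Tac1 was 279, 216, 189 and 229 CPM against 152 to 239 CPM in WT, with a log2 fold change of 0.30 ± 0.15 (SE, edgeR adjusted p = 0.325). In KI-96, Tac1 itself was lower in the fit (-0.097 ± 0.15), and it was lowest, at 109 CPM, in replicate 3. The KI-FL difference stayed past the threshold with each of the 11 WT and KI-FL mice left out in turn (adjusted p 0.0143 to 0.0364). Groups that do not overlap stay apart when any mouse is left out, so each exact permutation p was the smallest possible and adds no support. The KI-96 difference was past it for only 3 of the 11 mice left out (WT replicate 2 and KI-96 replicates 1 and 2), and was -0.24 without KI-96 replicate 3 (exact permutation p = 0.1).

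The second ratio was Drd2 to Drd1, the receptors by which dopamine acts on the 2 kinds of neuron. In WT mice it was 0.15, -0.022, 0.36, -0.14, 0.0082, -0.17 and -0.082 in replicates 1 to 7. KI-571 mice had 0.40, 0.60, 0.53 and 0.069, KI-96 mice 0.030, 0.57, 0.0015 and 0.42, and KI-FL mice 0.37, 0.23, 0.30 and -0.18. The ratio in 3 of 4 KI-571 mice was above every WT mouse, as it was for 2 of 4 KI-96 mice and 1 of 4 KI-FL mice, and 1 of 4 KI-FL mice lay below every WT mouse. The KI-571 mean was 0.38 above WT, a ratio 1.31 times that of WT (exact permutation p = 0.0182, adjusted p = 0.0364). The differences were 0.24 in KI-96 (exact permutation p = 0.121, adjusted p = 0.145) and 0.17 in KI-FL (exact permutation p = 0.209, adjusted p = 0.209). In KI-571, Drd1 was 268, 179, 217 and 218 CPM against 198 to 314 CPM in WT, a log2 fold change of -0.13 ± 0.14 (SE). The highest ratio and lowest Drd1 in WT (replicate 3) and in KI-571 (replicate 2) came from the mice with 981 and 391 CPM of cortical genes. In KI-96 and KI-FL the mouse with the highest cortical sum did not have the highest ratio, and a link was not tested. Without KI-571 replicate 2 the KI-571 difference was 0.32. The KI-571 difference was past the threshold for only 2 of the 11 mice left out, WT replicate 3 and KI-571 replicate 4 (adjusted p 0.025 to 0.0833 over the 11). Whether a ratio differed between KI genotypes was not tested.

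**Figure D4:**
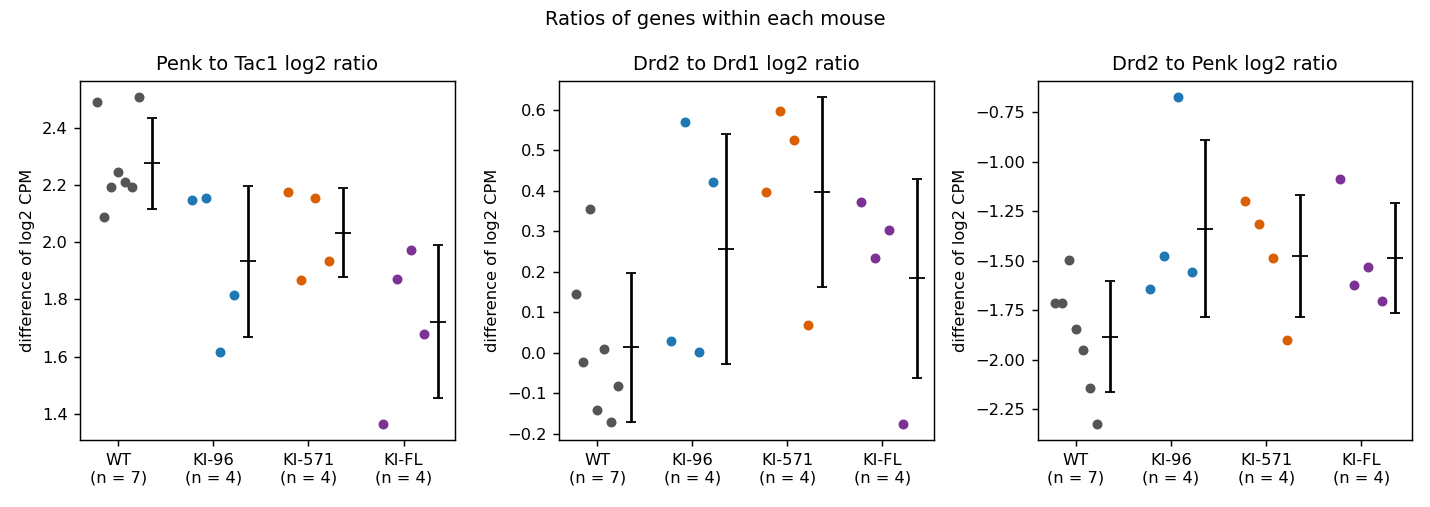
Log2 ratio of Penk to Tac1 (left), Drd2 to Drd1 (middle) and Drd2 to Penk (right) in each mouse by genotype, with the mean and SD beside the points and vertical axes that do not start at 0. The 4 KI-FL mice (1.36 to 1.97) sit below the 7 WT mice (2.09 to 2.51) for Penk to Tac1, and 3 of 4 KI-571 mice sit above the WT mice for Drd2 to Drd1.

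The opposite signs of Drd2 and Penk within the indirect pathway were described by their ratio, which was chosen after its values were seen and has no test. The log2 ratio of Drd2 to Penk was -2.32 to -1.49 in WT, -1.64 to -0.68 in KI-96, -1.90 to -1.20 in KI-571 and -1.70 to -1.09 in KI-FL mice. It was not the same throughout the WT mice, being -1.84 to -1.49 in replicates 1 to 4 and -2.32 to -1.95 in replicates 5 to 7. WT replicates 5 to 7 had libraries of at least 23457270 reads against at most 18945441 in replicates 1 to 4, and those of the KI mice held 12669809 to 23373551 reads. The log2 ratio of Drd2 to Penk was higher in each KI mouse than in WT replicates 5 to 7. Drd2 had a mean of 266 CPM in WT replicates 1 to 4 and 217 CPM in replicates 5 to 7, and Penk had 859 and 962 CPM. With WT replicates 1 to 4 as the only WT mice, the Penk to Tac1 difference in KI-FL was -0.53 and its 4 mice still gave the smallest p of the 70 splits (exact permutation p = 0.0286, adjusted p = 0.171), while the Drd2 to Drd1 difference in KI-571 was 0.31 (exact permutation p = 0.114).

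Other genes of the same neurons and of the same signals were read from lists, and none of the genes of the 7 lists passed the adjusted threshold against WT in any KI genotype by edgeR or DESeq2. Of 6 other genes of indirect-pathway neurons (Grik3, Plxdc1, Upb1, Six3, Sp8 and Adk), 0 of 6 were called, and the median log2 change was -0.093 in KI-96, -0.072 in KI-571 and -0.068 in KI-FL. The largest change was that of Sp8, a transcription factor related to Sp9, in KI-96 (-0.74 ± 0.37 SE, edgeR adjusted p = 0.679) and in KI-571 (-0.49 ± 0.36), and of Upb1 in KI-FL (-0.37 ± 0.21). Both were read at low levels, with a mean over all mice of 2.76 CPM for Sp8 and 4.08 CPM for Upb1. Of the 9 direct-pathway genes 0 were called, with a median of 0.0081 for KI-96, -0.016 for KI-571 and 0.093 for KI-FL. Sfxn1 in KI-96 (-0.17 ± 0.10), Ebf1 in KI-571 (-0.16 ± 0.19) and Pdyn, the dynorphin precursor gene, in KI-FL (0.36 ± 0.18) had the largest of these changes. The 8 projection neuron genes had medians of -0.070, 0.047 and 0.080, and the largest were Scn4b in KI-96 (-0.26 ± 0.16) and Rasd2 in KI-571 (0.31 ± 0.16) and KI-FL (0.33 ± 0.16). Several of these values rested on 1 mouse. Without replicate 1 of the KI genotype Rasd2 was 0.20 in KI-571 and 0.19 in KI-FL, and without KI-FL replicate 4 Pdyn was 0.23. Scn4b in KI-96 was -0.16 without KI-96 replicate 4 and -0.43 without replicate 2. In KI-571, Ebf1 was -0.063 without KI-571 replicate 2 and -0.24 without replicate 1, and Sp8 was -0.29 without WT replicate 1.

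Downstream of the receptors, 15 genes of G protein coupling and cAMP were tested, with medians of 0.013, 0.0070 and 0.12 in the KI genotypes in the same order. Gnal, the G protein alpha subunit through which the Adora2a and Drd1 receptors raise cAMP in the striatum, had the largest change in KI-96 (0.29 ± 0.13 SE, edgeR adjusted p = 0.653) and in KI-FL (0.27 ± 0.13), and Gng7, which works with it, in KI-571 (0.23 ± 0.13). Of 11 genes that process enkephalin or receive it, the medians were 0.055, 0.030 and 0.18, and Mme, the enzyme neprilysin that degrades enkephalin, had the largest change in KI-571 (0.38 ± 0.18) and in KI-FL (0.42 ± 0.18, edgeR adjusted p = 0.246). In KI-96 it was Oprm1, the mu opioid receptor (0.61 ± 0.36), which was 0.20 without KI-96 replicate 3. The 10 genes of adenosine supply and receptors had medians of -0.065, 0.038 and -0.034, with Adora3 the largest in KI-96 (-0.78 ± 0.50) and KI-571 (-0.71 ± 0.49) and Ada, which breaks down adenosine, in KI-FL (0.77 ± 0.38). Both genes were read at low levels, with a mean over all mice of 0.96 CPM for Adora3 and 2.13 CPM for Ada. Of the 7 genes of dopamine supply 6 were tested, with medians of -0.033, -0.10 and 0.021, and Slc18a2, the vesicular monoamine transporter, had the largest change in KI-96 (0.30 ± 0.22) and KI-FL (-0.57 ± 0.23, edgeR adjusted p = 0.216), and Th in KI-571 (-0.37 ± 0.30). In KI-FL, Mme was 0.21 without KI-FL replicate 1 and Ada 0.38 without KI-FL replicate 2. Slc18a2 in KI-96 was 0.12 without KI-96 replicate 3, and Th in KI-571 was -0.23 without KI-571 replicate 2. Most Th and Slc18a2 RNA of the brain is made by dopamine neurons whose cell bodies lie outside the striatum. At an unadjusted p under 0.05 with edgeR, these 7 lists gave at most 2 genes each, which were 2 of 11 of the enkephalin list in KI-96 (7.45% of all genes) and, in KI-FL (16.7% of all genes), 2 of 11 of the enkephalin and 2 of 6 of the dopamine list.

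Genes of other cells were also without a call by edgeR, and the largest changes included those of Tbr1 and Emx1 (cortical excitatory neuron), Cdh5, Flt1 and Tek (endothelial), Slc18a3 and Lhx8 (cholinergic interneuron), Gja1, Aqp4 and Gfap (astrocyte), P2ry12 and Tmem119 (microglia) and Ttr (choroid plexus). The smallest adjusted p among them was 0.0744, for P2ry12 in KI-FL (-0.54 ± 0.13 SE, edgeR). With DESeq2, the genes called included Aqp4 and P2ry12 in KI-FL and Kl and Ttr in KI-571. Summed astrocyte genes were 828 to 846 CPM in KI-FL mice against 792 to 1129 CPM in WT mice, and summed microglia genes 226 to 315 CPM against 193 to 274 CPM. Summed oligodendrocyte genes were 9214 to 10628 CPM in KI-FL against 9815 to 13981 CPM in WT mice. The lowest WT sum of astrocyte and of oligodendrocyte genes was that of replicate 3, the mouse with 981 CPM of cortical genes. The part of these cells in the levels of the 6 genes was not tested.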

How the data were processed

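Striatal RNA of 7 WT mice and of 4 mice of each KI genotype was measured, with groups and replicate numbers taken from the labels. The authors deposited raw counts per gene. They trimmed reads with BBduk, discarded short reads, aligned the rest to GRCm38 with STAR and counted with HTSeq, and versions, annotation and strand setting are not given in the sources used here. The 4 columns of the table that belong to no sample were not used, and the summary lines of HTSeq were not treated as genes. The sacrifice batch that the study used as covariate and the WT sample it removed are not given in the labels, so no batch term was fitted and all 7 WT mice were kept. The labels do not say whether litters were shared. The edgeR and DESeq2 p-values set a difference against the spread between these mice, and the exact permutation p-values set it against other splits of them. Spread between sacrifice batches or founders was not measured separately.

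The 7 genes, the other gene lists and the ratios were chosen with earlier results of these data known. Of 54232 identifiers, 54079 were named by matching without the version number, and 18521 passed filterByExpr (minimum count 10, minimum total 15). A single model over the 19 mice was made in edgeR 4.0.16 under R 4.3.3 (TMM, quasi-likelihood test, Benjamini-Hochberg adjustment over all genes, threshold 0.05, biological coefficient of variation 0.240), with a coefficient for each genotype, so the genotypes share one estimate of spread and the comparisons with WT share the WT mice. Levels are CPM, log2 CPM with a prior count of 2, or RPKM from merged exons of GENCODE M21. Ratios were compared by two-sided exact permutation tests, adjusted over 6 tests. Totals were 12669809 to 26388542 counts per mouse, and each of the 6 genes had at least 500 counts in every mouse. Replicates of a genotype differed by more than sampling noise (chi-square per degree of freedom at least 8.61).

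Beside the 6 genes, the text names Drd1 and Tac1, for each list the gene with the largest change in each comparison with WT and any gene called, and the 5 genes most like the mean of the 6. Cir1, A830012C17Rik, Htt, Ppp1r1b, Kl, Chat, Slc5a7, Isl1, Slc35d3 and the full list of other indirect-pathway genes were named beside these, and some genes that this rule takes are not reported here. Alternatives were DESeq2 1.42.0, its size factors in edgeR, no filter, at least 10 counts in every mouse, only the genotypes compared, WT replicates 1 to 4 alone, the replicate number as a block, Xist or cortical genes as covariate, a threshold of 0.1, a prior count of 0.5 and each mouse left out. The model was tested on simulated data.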

Additional observations from a re-analysis of the deposited data

Results flagged for a closer look

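A single mouse stood far from the rest of its genotype in 6 of 100 groups of values examined, where chance alone gives about 5. The 100 groups were of single genes, ratios and summed gene lists, and all 6 were summed lists. The number that chance gives among the summed lists alone is smaller and was not computed. None of them concerned the 6 indirect-pathway genes or their ratios. KI-96 replicate 3 had a summed level of enkephalin processing and receptor genes of 2017 CPM, against 3462 to 3544 CPM in the other KI-96 mice, and it was also the mouse with the lowest Penk. KI-FL replicate 4 had 205 CPM for the dopamine supply genes (others 149 to 158 CPM) and 315 CPM for the microglia genes (others 226 to 238 CPM). The cortical excitatory neuron genes summed to 981 CPM in WT replicate 3 (others 17.3 to 83.5 CPM) and to 391 CPM in KI-571 replicate 2 (others 36.8 to 72.1 CPM). The choroid plexus genes summed to 2917 CPM in KI-FL replicate 1 (others 26.6 to 139 CPM).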

How the results depend on the processing

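None of the 6 genes was called in any comparison under any of the alternatives, and their smallest adjusted p was 0.155, for Ptprm in KI-FL with only the genotypes compared in the edgeR model. Over all genes DESeq2 gave the most calls, equalled between KI-96 and KI-571 by the fit with no filter on low counts, with 28 in KI-96, 115 in KI-571, 509 in KI-FL and 285 in the mean of the KI genotypes, against 5, 6, 36 and 10 with edgeR, and between KI genotypes 38 (KI-96 and KI-FL), 88 (KI-571 and KI-FL) and 35 (KI-96 and KI-571) against 0, 16 and 1. The lowest counts were 0 in each comparison except 1 between KI-571 and KI-FL. Signs that changed were all of small values or of markers of other cells, and the cause was not tested. With WT replicates 1 to 4 alone the log2 fold change was -0.032 for Drd2 in KI-96, -0.028 for Gpr6 in KI-571, -0.045 for Gpr6 in KI-FL and -0.0019 for Tmem119 in KI-571. With the replicate block it was -0.028 for Drd2 in KI-96 and -0.024 for Gpr6 in KI-FL. Of 24 pairs of mice with the same number, 5 had a correlation over 0.1 (range -0.13 to 0.29). Pairs with different numbers were not compared, so whether the numbers pair the mice cannot be told from these values. The block left the calls among the 6 genes at 0, and the calls over all genes in KI-FL went from 36 to 0 with it. Replicate numbers 5 to 7 belong to a single WT mouse each, so the block fits these mice exactly and they carry no weight in the fold changes. It is thus close to the fit with WT replicates 1 to 4 alone, where the calls in KI-FL were also 0. With Xist as covariate the log2 fold change was -0.021 for Sp9 in KI-96, 0.15 for Ttr in KI-96 and 0.0030 for Adora2a in KI-FL, with the cortical covariate 0.0035 for Adora2a in KI-FL, and with DESeq2 1.32 for Tbr1 in KI-571. The Xist covariate took the genes at an unadjusted edgeR p under 0.05 from 1380 to 217 in KI-96. The same counts went from 1430 to 1366 in KI-571 and from 3099 to 2844 in KI-FL. Levels of Xist by mouse are not reported here.

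With single mice left out, the range in KI-96 was -0.10 to 0.17 for Drd2, -0.045 to 0.14 for Sp9, -0.31 to 0.027 for Adora2a and -0.33 to 0.0091 for Gpr6. It was -0.017 to 0.13 for Gpr6 and -2.21 to 1.29 for Tbr1 in KI-571. In KI-FL it was -0.0057 to 0.21 for Drd2, -0.11 to 0.094 for Adora2a, -0.062 to 0.12 for Gpr6 and -0.70 to 3.68 for Ttr, where KI-FL replicate 1 decides the sign. The Drd2 to Drd1 difference in KI-571 ranged from 0.32 to 0.49, and the Penk to Tac1 difference from -0.42 to -0.24 in KI-96 and from -0.29 to -0.19 in KI-571, where it passed the threshold without WT replicate 2 (-0.27, exact permutation adjusted p = 0.0190). In KI-FL it ranged from -0.64 to -0.43 and stayed past the threshold, where groups that do not overlap stay apart with any mouse left out. With WT replicates 1 to 4 alone the 3 ratio differences past the threshold were 0.31 (Drd2 to Drd1, KI-571), -0.32 (Penk to Tac1, KI-96) and -0.53 (Penk to Tac1, KI-FL) and did not pass it (exact permutation p = 0.114, 0.114 and 0.0286, the last the smallest that 70 splits allow, and adjusted p = 0.171 for each). A prior count of 0.5 changed no ratio call.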
